A study of Rattus norvegicus with 9 samples.

Results

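The natriuretic peptide system was followed in cultured ventricular heart muscle cells of newborn rats through 6 genes, taken as the rows of the read count table with the symbols Nppa, Nppb, Npr1, Npr2, Npr3 and Corin. All 6 were among the 17327 rows, and all 6 were among the 11873 genes with enough reads to be tested. RNA sequencing was done in 3 groups of 3 samples: primary cardiomyocytes given 50 µM phenylephrine, an agonist of alpha-1 adrenergic receptors, for 48 hours; the same cells given 10 nM IGF1, a growth factor, for 48 hours; and cells given vehicle. Both agents were used as stimuli of hypertrophic growth. The labels name no strain or litter and leave unstated whether replicates were separate cultures, so the p-values reflect only spread among these replicates, and that spread may be technical.

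Nppa and Nppb encode the precursors of atrial natriuretic peptide (ANP) and brain natriuretic peptide (BNP), hormones released by heart muscle cells under stretch or load. Corin is the cell-surface protease that cuts the ANP precursor into active hormone. ANP and BNP bind the receptor encoded by Npr1, whose inner domain makes cyclic GMP (cGMP); Npr2 encodes the related cyclase receptor for C-type natriuretic peptide, and Npr3 a receptor without a cyclase domain that takes peptides up and clears them. In the heart both peptide genes are expressed widely before birth, decline in the ventricle afterwards and return in hypertrophy, so they serve as markers of it.

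Total counts ran from 31274396 to 48505265 per sample, and 1 CPM, the read count scaled by library size, rested on 29.1 to 51.6 reads. IGF1 replicate 1 stood apart from the other samples of its group: 226 and 263 of 9301 genes differed over 1.5-fold between it and IGF1 replicates 3 and 2, against 6 to 30 genes in every other pair of replicates. The tests of the 6 genes are therefore also given without it. Heart muscle markers matched the label, with a summed level of 74029 to 75025 CPM with phenylephrine, 57673 to 79173 CPM with IGF1 and 50787 to 54664 CPM with vehicle. Such sums follow the most abundant markers. Of these 10 markers, 6 passed an edgeR adjusted p of 0.05 as higher and 4 as lower with phenylephrine against vehicle. The shares of all genes tested were 27.9% and 28.9%. With IGF1 against vehicle 6 were higher and 1 lower, beside 24.7% and 23.4% of all genes. The 10 atrial markers summed to 681 to 701, 826 to 884 and 740 to 773 CPM in the same groups. Of 9 tested, 2 were higher and 4 lower with phenylephrine, and 3 and 2 with IGF1. The 5 ventricular markers summed to 5819 to 5971, 5627 to 9017 and 3376 to 3860 CPM. Of these, 2 were higher and 3 lower with phenylephrine, and 3 and 2 with IGF1. Markers of other cells were present too: 10 fibroblast markers summed to 4724 to 4819, 5963 to 6884 and 5084 to 6077 CPM, and 10 smooth muscle and pericyte markers to 2829 to 2895, 1868 to 2420 and 1993 to 2098 CPM. Of 9 fibroblast markers tested, 1 was higher and 4 lower with phenylephrine, and 4 and 1 with IGF1. For the smooth muscle and pericyte list these counts were 4 and 3, and 1 and 2 (3 and 3 without IGF1 replicate 1). The 10 macrophage and leukocyte markers summed to 68.4 to 86.4, 68.0 to 74.4 and 74.2 to 85.5 CPM. Their counts were 0 and 2, and 0 and 1, of 9 tested.

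The 2 peptide genes are neighbours in the RefSeq annotation of the rat build GRCr8, where Nppb comes before Nppa on the same strand and their start sites lie 12176 bases apart. Since they moved together in most samples, the 250 bases before each start are shown here, 5′ to 3′, from the RefSeq promoter set of GRCr8, at chr5:163711934-163712183 (plus strand) for Nppa and at chr5:163699758-163700007 (plus strand) for Nppb. Capitals mark matches, on either strand, to GATA, AAGTG (the letters bound by NKX2-5), GGAATG (the M-CAT motif of TEAD factors) and TATAAA.
Nppa: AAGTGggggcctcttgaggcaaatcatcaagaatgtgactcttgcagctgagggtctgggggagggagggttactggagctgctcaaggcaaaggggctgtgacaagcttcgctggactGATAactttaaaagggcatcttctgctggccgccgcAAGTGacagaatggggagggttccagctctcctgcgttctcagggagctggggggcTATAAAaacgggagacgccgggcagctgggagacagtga
Nppb: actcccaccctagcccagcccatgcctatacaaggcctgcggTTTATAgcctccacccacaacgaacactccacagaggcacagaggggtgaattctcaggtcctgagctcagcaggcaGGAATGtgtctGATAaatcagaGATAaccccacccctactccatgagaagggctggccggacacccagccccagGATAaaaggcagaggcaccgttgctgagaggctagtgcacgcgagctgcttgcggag
The Nppa window held 1 GATA match, 131 bases before the start, 2 AAGTG matches, the nearer at 95 bases, and a TATA box at 39 bases. The Nppb window held 3 GATA matches, at 120, 109 and 57 bases, and 1 M-CAT match at 131 bases. Its TATAAA match lay at 208 bases on the other strand. Neither window held an exact match to the searched patterns of the AP-1 motif (TGANTCA) or the CArG box, the element of SRF. Looser forms of these elements were not searched, so their absence is not shown. Of 33469 RefSeq promoter windows of this length, 55.9% held GATA, 40.6% AAGTG, 12.1% GGAATG, 12.9% TATAAA, 6.34% TGANTCA and 1.497% a CArG box, so the GATA and AAGTG matches are common. None of these matches overlapped another.

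With phenylephrine Nppa was 11.4-fold and Nppb 11.3-fold higher than with vehicle, and all 3 receptor genes and Corin were lower. With all 9 samples in the fit, the 6 genes all passed the threshold of an edgeR adjusted p of 0.05, 2 as higher and 4 as lower. In this comparison 56.8% of all genes tested passed, 27.9% as higher and 28.9% as lower, so passing it was common. The size was not: Nppa and Nppb had the 12th and 13th highest log2 fold changes of the 11873 genes.

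Nppa, the ANP gene, stood at 8014, 7792 and 8246 CPM in the phenylephrine samples, at 2848, 591 and 630 CPM in IGF1 replicates 1, 2 and 3, and at 724, 739 and 652 CPM in the vehicle samples. Its reads made up 0.725% to 0.771% of all counts with phenylephrine, 0.0612% to 0.271% with IGF1 and 0.0694% to 0.0782% with vehicle. The phenylephrine samples lay far above all others and close to each other, while the IGF1 group was split by replicate 1, which lay between the phenylephrine samples and the rest. Against vehicle the log2 fold change with phenylephrine was 3.51 (SE 0.69, edgeR adjusted p = 0.0049). Without IGF1 replicate 1, which enters the spread shared by all groups, the log2 fold change was again 3.51 but the SE was 0.042 (edgeR adjusted p = 4.2e-25).

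Nppb, the BNP gene, stood at 1620, 1670 and 1603 CPM with phenylephrine, at 1031, 119 and 121 CPM with IGF1 and at 145, 154 and 135 CPM with vehicle. The same samples were high and low as for Nppa, with IGF1 replicate 1 again between the phenylephrine samples and the others. Its log2 fold change with phenylephrine against vehicle was 3.49 (SE 0.94, edgeR adjusted p = 0.019), and 3.50 with an SE of 0.036 without IGF1 replicate 1 (edgeR adjusted p = 4.1e-38). With IGF1 replicate 1 kept, the call was lost on removal of any single vehicle replicate (log2 3.44 to 3.53, edgeR adjusted p = 0.062 to 0.066).

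**Figure D1:**
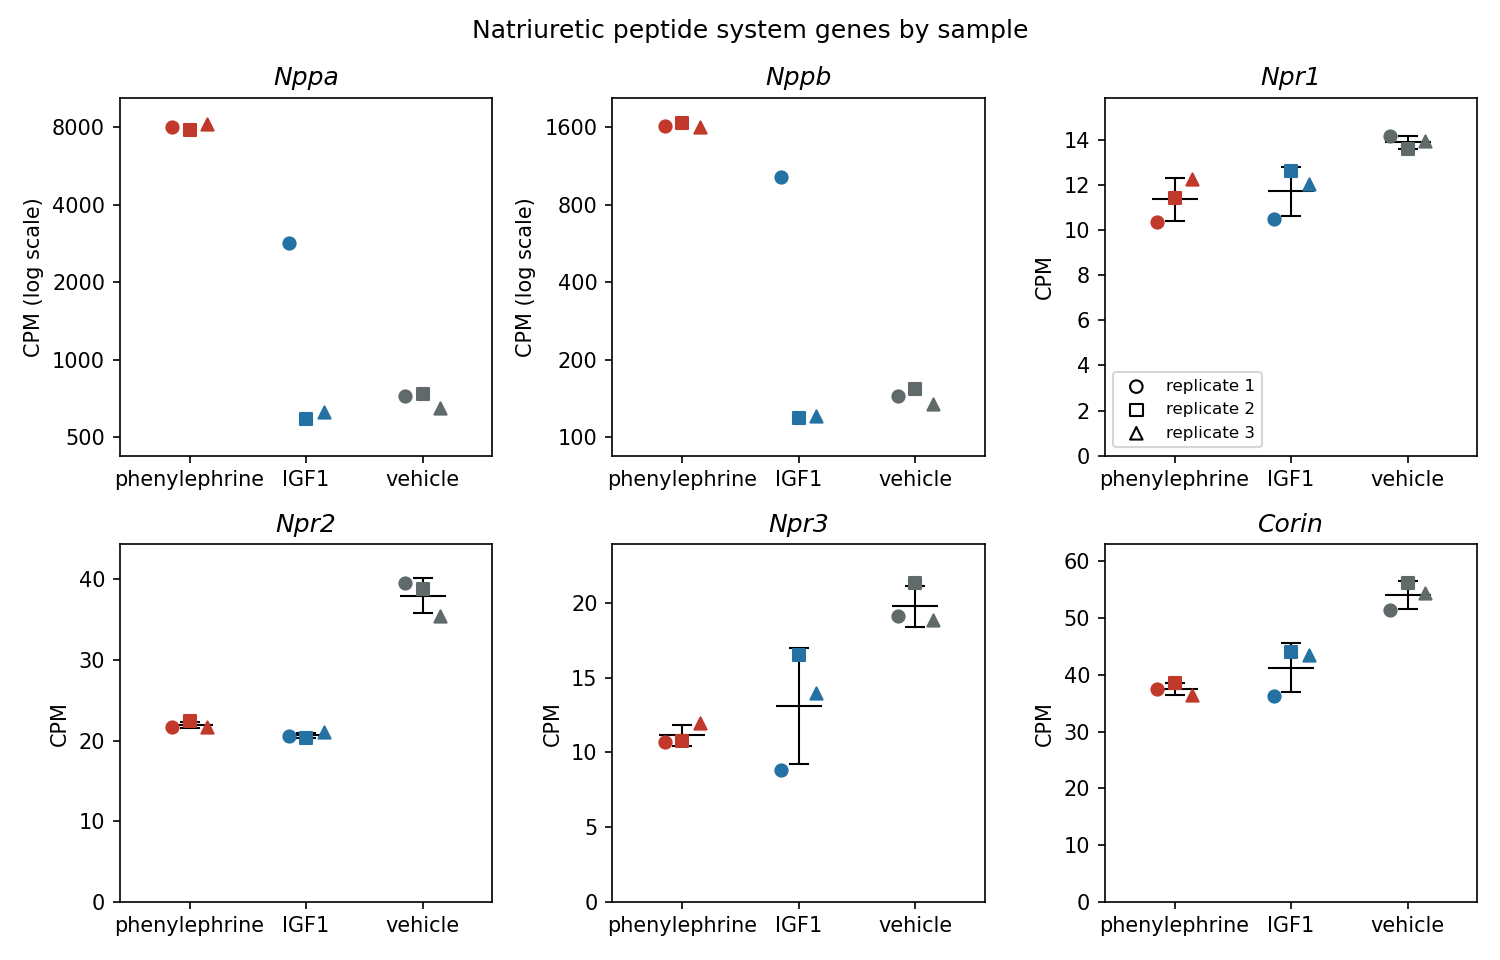
Level in CPM of the 6 genes in each sample (symbols mark the replicate number), for phenylephrine, IGF1 and vehicle; Nppa and Nppb are on log axes, and the other panels start at 0 with the mean and SD of 3 samples. Nppa and Nppb are high in the 3 phenylephrine samples and in IGF1 replicate 1, and the receptor genes and Corin are highest with vehicle.

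The receptor genes went the other way with phenylephrine. Npr2, the receptor gene for C-type natriuretic peptide, had 21.7, 22.4 and 21.7 CPM with phenylephrine, 20.6, 20.3 and 21.04 CPM with IGF1 and 39.6, 38.8 and 35.5 CPM with vehicle. Both treated groups were tight and lay well below vehicle, with no overlap. Npr2 fell by 0.79 (log2, SE 0.060, edgeR adjusted p = 5.2e-08) with phenylephrine, or 1.73-fold, and by 0.79 also without IGF1 replicate 1 (edgeR adjusted p = 6.4e-16).

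Npr3, the clearance receptor gene, had 10.7, 10.8 and 11.96 CPM with phenylephrine, 8.85, 16.5 and 13.98 CPM with IGF1 and 19.1, 21.4 and 18.8 CPM with vehicle. Here IGF1 replicate 1 was the lowest of all 9 samples, on the far side of the phenylephrine samples, and no treated sample reached the vehicle range. Npr3 was 1.77-fold lower with phenylephrine (log2 -0.82, SE 0.18, edgeR adjusted p = 0.0037; SE 0.081 and edgeR adjusted p = 7.9e-12 without IGF1 replicate 1).

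Npr1, the receptor gene for ANP and BNP, had the smallest fold change of the 3 receptors with phenylephrine. It had 10.4, 11.4 and 12.3 CPM with phenylephrine, 10.5, 12.6 and 12.05 CPM with IGF1 and 14.2, 13.6 and 13.9 CPM with vehicle, so the treated groups overlapped each other and lay just below vehicle. With phenylephrine Npr1 was 1.22-fold lower (log2 -0.29, SE 0.091, edgeR adjusted p = 0.013; edgeR adjusted p = 0.0025 without IGF1 replicate 1). The call ended without phenylephrine replicate 1, the lowest of its group (log2 -0.23, edgeR adjusted p = 0.066).

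Corin, the ANP-processing protease gene, had 37.6, 38.7 and 36.5 CPM with phenylephrine, 36.2, 44.0 and 43.6 CPM with IGF1 and 51.4, 56.3 and 54.4 CPM with vehicle. Every treated sample was below every vehicle sample. It was 1.44-fold lower with phenylephrine (log2 -0.52, SE 0.067, edgeR adjusted p = 1.1e-05; edgeR adjusted p = 4.0e-13 without IGF1 replicate 1).

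All 6 genes had groups that did not overlap between phenylephrine and vehicle, 2 higher and 4 lower, as did 32.6% of all genes tested in the upward and 34% in the downward direction. In these bulk samples, fewer cells of a type and less RNA per cell cannot be told apart. Receptor genes of this system are also expressed outside heart muscle cells. The 10 endothelial markers summed to 63.6 to 76.2 CPM with phenylephrine, 35.8 to 41.98 CPM with IGF1 and 79.2 to 86.9 CPM with vehicle, with Robo4 at 0 in all 9 samples. Of their 9 tested genes 1 was called higher and 1 lower with phenylephrine (3 lower without IGF1 replicate 1), and 0 higher and 5 lower with IGF1. The shares of all genes called higher and lower were 27.9% and 28.9% with phenylephrine and 24.7% and 23.4% with IGF1. Without IGF1 replicate 1, 3875 of all 12030 genes were lower with phenylephrine. The 7 epicardial markers, of which 6 had a row, summed to 54.2 to 55.3, 46.2 to 53.1 and 59.8 to 66.1 CPM in these groups. Of these 6, 1 was called higher and 3 lower with phenylephrine, and 0 and 3 with IGF1. The part of such cells in the lower receptor levels was not tested.

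With IGF1 the receptor genes and Corin were lower than with vehicle, and the peptide genes were high in 1 of its 3 samples. With all samples, neither Nppa (log2 0.94, SE 0.63, edgeR adjusted p = 0.27) nor Nppb (log2 1.55, SE 0.88, edgeR adjusted p = 0.20) passed the threshold against vehicle. IGF1 replicate 1 had 4.67-fold the mean Nppa level of IGF1 replicates 2 and 3 and 8.60-fold their Nppb level. In the fit that left it out, the direction of both peptide genes turned: Nppa fell by 0.21 (log2, SE 0.044, edgeR adjusted p = 4.1e-04) and Nppb fell by 0.27 (log2, SE 0.039, edgeR adjusted p = 4.6e-07), with both remaining IGF1 samples below all 3 vehicle samples. With 2 IGF1 samples left, their spread is assumed to be like that of the other groups.

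With all samples 0 of the 6 genes were called higher and 4 lower. Of all genes tested 48.1% passed in this comparison, 24.7% as higher and 23.4% as lower. Npr2 fell by 0.88 (log2, SE 0.059, edgeR adjusted p = 2.0e-08), or 1.84-fold, and was nearly the same in all 3 IGF1 samples, replicate 1 included. Corin fell by 0.38 (log2, SE 0.066, edgeR adjusted p = 2.2e-04), and by 0.30 without IGF1 replicate 1 (edgeR adjusted p = 1.7e-06).

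Npr3 fell by 0.58 (log2, SE 0.18, edgeR adjusted p = 0.023) with all samples and by 0.37 (edgeR adjusted p = 2.7e-04) without IGF1 replicate 1. Its call ended in a fit of the IGF1 and vehicle samples alone (log2 -0.58, edgeR adjusted p = 0.053) and without vehicle replicate 2 (-0.53, edgeR adjusted p = 0.064). Npr1 fell by 0.24 (log2, SE 0.089, edgeR adjusted p = 0.036). That call ended without IGF1 replicate 1 (-0.17, edgeR adjusted p = 0.10) and without any 1 vehicle sample (-0.27 to -0.24, edgeR adjusted p = 0.055 to 0.084). Leaving out IGF1 replicate 1, 5 of the 6 genes were called lower, beside 26.6% of all genes, and 6 of 6 had IGF1 samples wholly below vehicle, beside 34.1% of all genes.

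**Figure D2:**
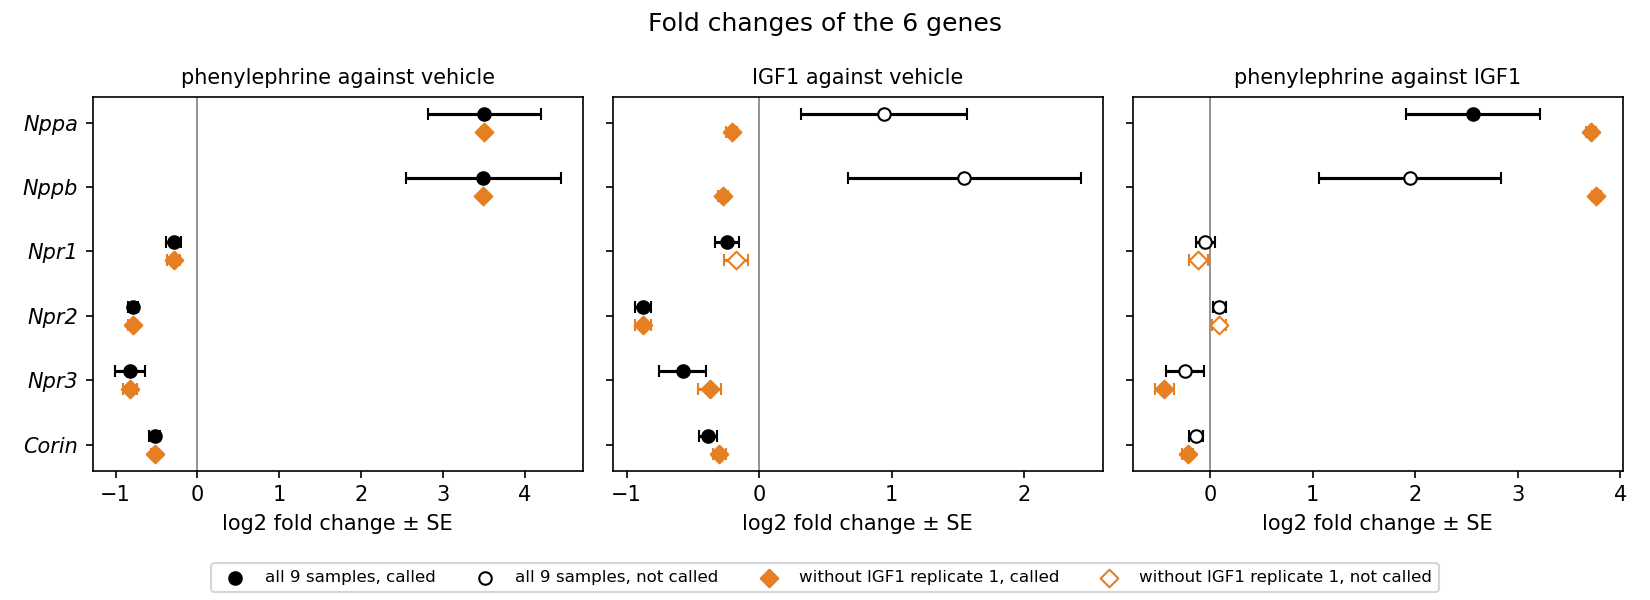
Log2 fold change with its SE for the 6 genes in the 3 comparisons, with all 9 samples (black circles) and without IGF1 replicate 1 (orange diamonds); filled symbols passed an edgeR adjusted p of 0.05. The phenylephrine values against vehicle keep their place and gain in precision, while Nppa and Nppb change sign against vehicle in the IGF1 panel.

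The 2 agents were also compared directly. Nppa was 5.91-fold higher with phenylephrine than with IGF1 (log2 2.56, SE 0.66, edgeR adjusted p = 0.017), and Nppb was 3.86-fold higher without passing the threshold (log2 1.95, SE 0.89, edgeR adjusted p = 0.11). When IGF1 replicate 1 was left out both passed, at 13.1-fold for Nppa (log2 3.72, SE 0.051, edgeR adjusted p = 4.7e-24) and 13.6-fold for Nppb (log2 3.77, SE 0.043, edgeR adjusted p = 1.1e-36). The phenylephrine samples lay above every IGF1 sample for both genes, also with replicate 1. The Nppa call ended in a fit of these 2 groups alone with replicate 1 (log2 2.56, edgeR adjusted p = 0.058).

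Between phenylephrine and IGF1, 1 of the 6 genes was called higher and 0 lower with all samples, where 54.2% of all genes passed, 27.1% in each direction. The receptor genes and Corin missed the threshold. The log2 differences were 0.089 (SE 0.061) for Npr2, -0.049 (SE 0.092) for Npr1, -0.25 (SE 0.19) for Npr3 and -0.14 (SE 0.068) for Corin (edgeR adjusted p = 0.24, 0.68, 0.30 and 0.099). With IGF1 replicate 1 left out, 2 of the 6 genes were higher and 2 lower, beside 30.4% and 30.2% of all genes: Npr3 was 1.37-fold lower (log2 -0.45, SE 0.091, edgeR adjusted p = 4.0e-05) and Corin 1.16-fold lower (log2 -0.22, SE 0.052, edgeR adjusted p = 3.3e-04) with phenylephrine. Npr1 and Npr2 missed the threshold there too (edgeR adjusted p = 0.28 and 0.26).

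From high to low, the group levels of Nppa and Nppb ran phenylephrine, IGF1 and vehicle with all samples, where IGF1 and vehicle overlapped, and phenylephrine, vehicle and IGF1 without IGF1 replicate 1, where no groups overlapped. For Npr3, Npr1 and Corin the order was vehicle, IGF1 and phenylephrine with and without that sample. For Npr2 it was vehicle, phenylephrine and IGF1, with the last 2 apart by less than the test could call. Their Npr2 ranges did not overlap, with or without IGF1 replicate 1.

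Ratios of reads between genes do not depend on library scaling and show whether a pair moved by equal amounts. The log2 ratio of Nppb to Nppa reads was -2.31, -2.22 and -2.36 with phenylephrine, -1.47, -2.31 and -2.38 with IGF1 and -2.32, -2.26 and -2.27 with vehicle. All samples but 1 thus held the 2 peptide genes in nearly 1 proportion although their levels differed by over 10-fold between groups, and IGF1 replicate 1 alone lay outside it, with more Nppb per Nppa. The phenylephrine and vehicle means differed by -0.013 (exact two-sided permutation p = 0.80, where 0.10 is the smallest that 3 against 3 samples allow).

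Against the signalling receptor gene Npr1, the clearance receptor gene Npr3 gave fewer reads with phenylephrine than with vehicle. The log2 ratio of Npr3 to Npr1 reads was 0.047, -0.083 and -0.038 with phenylephrine, -0.25, 0.39 and 0.21 with IGF1 and 0.43, 0.65 and 0.43 with vehicle. Phenylephrine samples all lay below vehicle samples, by 0.53 on average (exact permutation p = 0.10, the smallest possible), and so did IGF1 samples, by 0.39 with all samples (exact permutation p = 0.10, the smallest possible) and 0.20 without IGF1 replicate 1. Over the 9 ratio comparisons made (3 pairs of genes in 3 comparisons) no p could pass the threshold.

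The log2 ratio of Npr3 to Npr2 reads was -1.02, -1.06 and -0.86 with phenylephrine, -1.21, -0.30 and -0.59 with IGF1 and -1.05, -0.86 and -0.92 with vehicle. Phenylephrine and vehicle overlapped and differed by -0.037 (exact permutation p = 0.70). IGF1 replicates 2 and 3 lay above all vehicle samples, while IGF1 replicate 1 lay below them; the IGF1 mean was 0.24 above vehicle with replicate 1 (exact permutation p = 0.50) and 0.50 above without it.

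**Figure D3:**
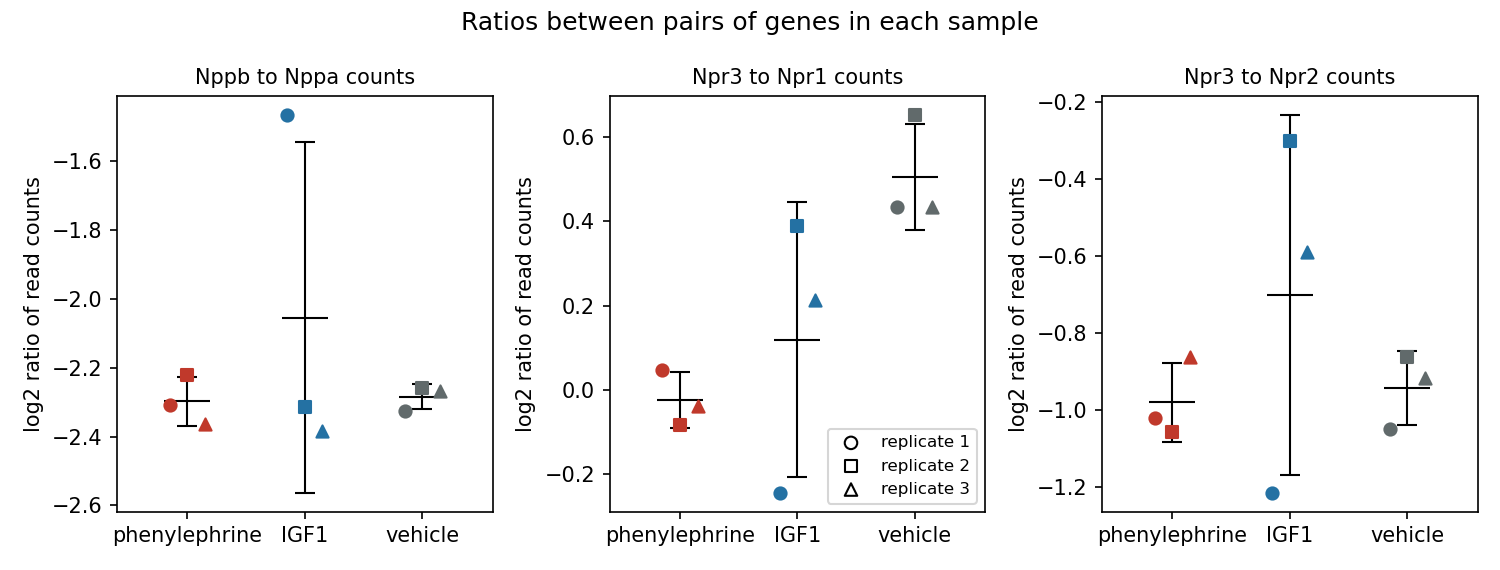
Log2 ratio of read counts between pairs of genes in each sample, with the mean and SD of 3 samples, for phenylephrine, IGF1 and vehicle. The Nppb to Nppa ratio is near -2.3 in all samples but IGF1 replicate 1, and the Npr3 to Npr1 ratio is lower with phenylephrine than with vehicle.

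Other genes of the system were taken from 6 lists of 75 genes, of which 65 were tested. With phenylephrine 22 were higher and 19 lower than with vehicle, beside 27.9% and 28.9% of all genes tested. With IGF1 11 were higher and 26 lower, beside 24.7% and 23.4% of all genes tested. In the fit without IGF1 replicate 1 the counts were 23 and 23 of 66 genes with phenylephrine and 13 and 26 with IGF1. Of all 12030 genes in that fit, 3749 were higher and 3875 lower with phenylephrine, and 3292 and 3194 with IGF1. Both comparisons use the same vehicle samples. The median log2 fold change of all genes tested was -0.029 with phenylephrine and -0.0018 with IGF1.

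Of the other ligands, Nppc, which encodes C-type natriuretic peptide, had 1.96, 1.47 and 1.26 CPM with phenylephrine, 0.296, 0.587 and 0.503 CPM with IGF1 and 1.94, 1.91 and 2.31 CPM with vehicle, resting on 9 to 119 reads a sample. IGF1 samples all lay below the others, and Nppc fell by 2.10 (log2, edgeR adjusted p = 1.7e-05) with IGF1 and by 1.91 (edgeR adjusted p = 7.2e-07) without IGF1 replicate 1. With phenylephrine it missed the threshold (log2 -0.40, edgeR adjusted p = 0.18). Ostn, which encodes a ligand of the clearance receptor, had too few reads to be tested.

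Among 8 genes of peptide processing and breakdown, 7 were tested: 2 rose and 4 fell with phenylephrine (median log2 -0.27), and 0 rose and 6 fell with IGF1 (median -0.36). Furin, which encodes a convertase that can cut the BNP precursor, had 311, 320 and 324 CPM with phenylephrine, 162, 164 and 180 CPM with IGF1 and 271, 265 and 248 CPM with vehicle. The 3 groups did not overlap; Furin rose with phenylephrine (log2 0.28, SE 0.048, edgeR adjusted p = 1.4e-04) and fell by 0.63 with IGF1 (edgeR adjusted p = 8.4e-08). Pcsk6, which encodes the convertase that activates corin, did likewise, at 0.28 with phenylephrine (edgeR adjusted p = 3.9e-04) and -0.20 with IGF1 (edgeR adjusted p = 0.0053). Scaled by library size only, both missed the threshold with phenylephrine, Furin at 0.089 and Pcsk6 at 0.081 (edgeR adjusted p = 0.21 and 0.31), and the list stood at 0 higher and 5 lower. All 11873 genes stood at 1751 higher and 5696 lower under that scaling. Pcsk5, another convertase gene, fell by 0.86 and 0.52 and Mme, which encodes the natriuretic peptide degrading enzyme neprilysin, by 0.66 and 0.47 with phenylephrine and with IGF1 (edgeR adjusted p of 0.0012 or less).

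Of 12 genes of cGMP synthesis and effectors, 11 were tested. With phenylephrine 4 rose and 3 fell (median log2 -0.024), and with IGF1 1 rose and 3 fell (median 0.021; 3 rose and 2 fell of 12 without IGF1 replicate 1). Hspb6, which encodes a small heat shock protein phosphorylated by cyclic nucleotide kinases, had 693, 714 and 674 CPM with phenylephrine, 646, 385 and 401 CPM with IGF1 and 253, 253 and 256 CPM with vehicle. It was higher in every treated sample, and IGF1 replicate 1 lay near the phenylephrine samples; the IGF1 rise was 0.91 (log2, edgeR adjusted p = 0.0090) with it and 0.63 without it. Rgs2, a regulator of G protein signalling that the cGMP-dependent kinase can activate, rose by 1.08 with phenylephrine (edgeR adjusted p = 1.9e-06) and had a log2 value of 0.20 with IGF1 (edgeR adjusted p = 0.16).

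Gucy1a3, which encodes a subunit of the soluble guanylyl cyclase, fell by 0.68 with phenylephrine (edgeR adjusted p = 1.3e-05). With IGF1 its log2 value was -0.21 (edgeR adjusted p = 0.053). Gucy1a2, another subunit gene, fell by 0.63 with IGF1 (edgeR adjusted p = 0.039), a call that ended without IGF1 replicate 1 (-0.42, edgeR adjusted p = 0.081) and on removal of vehicle replicate 1 or 2 (-0.50 and -0.57, edgeR adjusted p = 0.16 and 0.12) or any phenylephrine sample (edgeR adjusted p = 0.054 to 0.055). It also ended with limma-voom (-0.60, limma adjusted p = 0.073) and in a fit of the IGF1 and vehicle samples alone (-0.64, edgeR adjusted p = 0.078). Prkg1, the gene of the main cGMP-dependent kinase, had 11.4, 11.2 and 11.96 CPM with phenylephrine, 12.7, 10.8 and 11.1 CPM with IGF1 and 11.9, 13.1 and 11.1 CPM with vehicle, so that all 3 groups overlapped.

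All 9 phosphodiesterase genes were tested, 1 rising and 2 falling with phenylephrine (median log2 -0.35; 1 and 4 without IGF1 replicate 1) and 2 rising and 2 falling with IGF1 (median -0.13). Scaled by library size only, 0 rose and 5 fell with phenylephrine (median -0.55), and 1 rose and 2 fell with IGF1 (median -0.21). The same scaling gave 1751 higher and 5696 lower of all 11873 genes with phenylephrine, and 2031 and 3614 with IGF1. Pde3a, whose enzyme is inhibited by cGMP, had 72.0, 77.6 and 74.5 CPM with phenylephrine, 45.2, 50.1 and 53.2 CPM with IGF1 and 75.0, 78.3 and 75.9 CPM with vehicle. It was low in the IGF1 samples alone, where it fell by 0.62 (log2, edgeR adjusted p = 4.0e-07), and it was 0.59 higher with phenylephrine than with IGF1 (edgeR adjusted p = 4.9e-07). Its relative Pde3b fell by 0.36 with phenylephrine (edgeR adjusted p = 0.0044) and rose by 0.30 with IGF1 (edgeR adjusted p = 0.014), the last call ending without vehicle replicate 3 or IGF1 replicate 2 or 3 (0.24 to 0.27, edgeR adjusted p = 0.059 to 0.076). With scaling by library size only, Pde3b fell by 0.56 with phenylephrine (edgeR adjusted p = 9.0e-04) and was not called with IGF1 (0.22, edgeR adjusted p = 0.12). Pde1a rose with both (log2 0.43 and 0.62, edgeR adjusted p = 0.046 and 0.0067), though the phenylephrine call ended without vehicle replicate 2 or 3, phenylephrine replicate 2 or 3 or IGF1 replicate 3 (0.25 to 0.49, edgeR adjusted p = 0.053 to 0.22). That call also ended with scaling by library size only (0.23, edgeR adjusted p = 0.30), with a filter of 1 CPM in 3 samples (0.42, edgeR adjusted p = 0.0503) and with limma-voom (0.46, limma adjusted p = 0.053). Of the cGMP-specific enzymes, Pde9a fell by 1.02 with phenylephrine (edgeR adjusted p = 0.032) at 0.406 CPM with phenylephrine and 0.817 CPM with vehicle, a call that ended without vehicle replicate 1 or 3 or any phenylephrine sample (-1.09 to -0.80, edgeR adjusted p = 0.051 to 0.13). Pde5a missed the threshold with both agents (log2 -0.35 and -0.33, edgeR adjusted p = 0.10 and 0.13), but passed with phenylephrine without IGF1 replicate 1 (-0.35, edgeR adjusted p = 0.016).

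Of 30 transcription factors and cofactors reported at the Nppa or Nppb promoters, 28 were tested. With phenylephrine 12 rose and 8 fell (median log2 0.044), and with IGF1 5 rose and 12 fell (median -0.080). Leaving out IGF1 replicate 1, 12 rose and 9 fell with phenylephrine and 6 rose and 13 fell with IGF1. Scaled by library size only, 7 rose and 14 fell with phenylephrine and 3 rose and 13 fell with IGF1. Of all 11873 genes, 1751 rose and 5696 fell with phenylephrine under that scaling, and 2031 rose and 3614 fell with IGF1. Gata4 encodes a factor that binds GATA motifs, but its binding at the matches shown above was not tested. It had 624, 646 and 650 CPM with phenylephrine, 508, 383 and 394 CPM with IGF1 and 389, 399 and 396 CPM with vehicle. It rose by 0.70 with phenylephrine (log2, edgeR adjusted p = 7.3e-05), and in the IGF1 group replicate 1 again lay between (log2 0.12, edgeR adjusted p = 0.31). Gata6, the other GATA factor gene of the list, went the other way. It had 128, 127 and 125 CPM with phenylephrine, 151, 160 and 157 CPM with IGF1 and 172, 163 and 172 CPM with vehicle. Every treated sample lay below every vehicle sample for Gata6. The AP-1 subunit genes Fosl1 and Fos rose by 1.62 and 1.25 (log2) with phenylephrine (edgeR adjusted p = 1.8e-06 and 3.1e-09), and Fos fell by 0.73 with IGF1 (edgeR adjusted p = 1.7e-06). The other AP-1 genes listed did not share a firm rise with phenylephrine. Jun rose by 0.56, a call that ended without any 1 vehicle or phenylephrine sample (0.52 to 0.58, edgeR adjusted p = 0.058 to 0.081). Junb had 44.4, 44.4 and 43.7 CPM with phenylephrine and 44.7, 44.2 and 41.3 CPM with vehicle, so these groups overlapped. Junb, another AP-1 subunit gene, fell by 0.79 with IGF1 (edgeR adjusted p = 1.2e-08), and Nfatc2, a calcineurin-dependent factor gene, fell by 1.03 with phenylephrine (edgeR adjusted p = 2.0e-07) and by 0.78 with IGF1 (edgeR adjusted p = 3.4e-06).

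**Figure D4:**
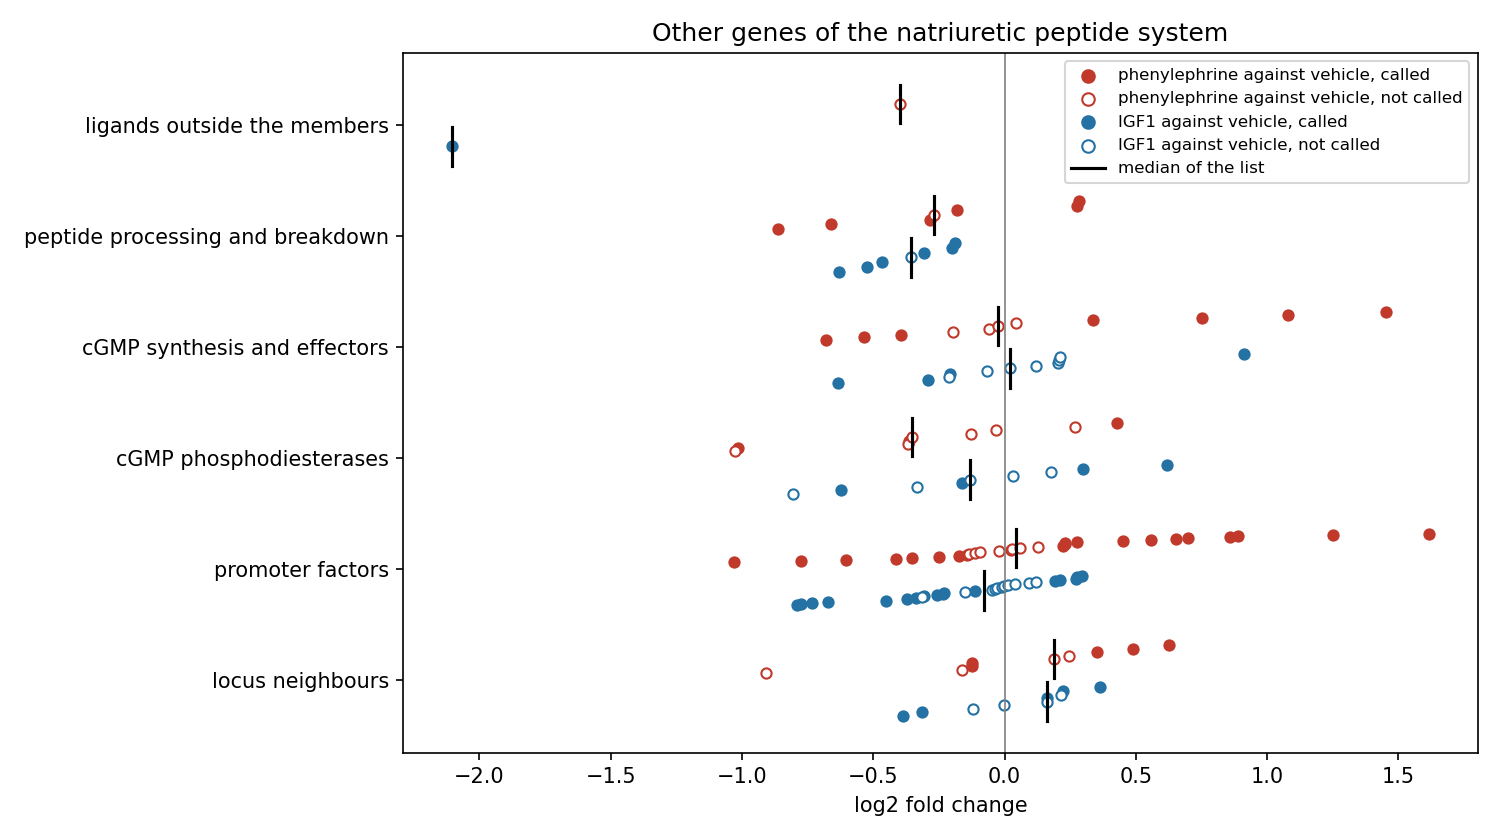
Log2 fold change against vehicle of the tested genes of 6 lists around the natriuretic peptide system, with phenylephrine (upper row of each list) and IGF1 (lower row), all 9 samples; filled points passed an edgeR adjusted p of 0.05 and black bars are list medians. Processing and breakdown genes lie mostly below 0, and Nppc stands at -2.10 with IGF1.

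The log2 fold changes of the tested genes listed as neighbours of Nppa and Nppb were all far below those of the peptide genes with phenylephrine. Not all of the listed genes are close. Fbxo44 and Fbxo6 were not among the 11 genes after Nppb in RefSeq, nor among the nearest genes before it. Of 14 listed neighbours 9 were tested; 3 rose and 2 fell with phenylephrine (median log2 0.19; 4 and 3 without IGF1 replicate 1) and 3 rose and 2 fell with IGF1 (median 0.16; 2 and 2 without IGF1 replicate 1). Scaled by library size only, 3 rose and 3 fell with phenylephrine (median -0.0049), and 0 rose and 2 fell with IGF1 (median 0.080), so that all 3 IGF1 calls as higher, of Clcn6, Fbxo44 and Mfn2, were lost. Among all 11873 genes that scaling gave 1751 higher and 5696 lower with phenylephrine, and 2031 and 3614 with IGF1. Clcn6, a chloride transporter gene and the next gene after Nppa in RefSeq, had 41.97, 47.7 and 46.98 CPM with phenylephrine, 39.4, 36.1 and 38.1 CPM with IGF1 and 35.0, 31.2 and 31.2 CPM with vehicle. The groups did not overlap, and it rose by 0.49 with phenylephrine (log2, edgeR adjusted p = 1.3e-05) and by 0.22 with IGF1 (edgeR adjusted p = 0.010), the IGF1 call ending without vehicle replicate 2 or 3 (0.19, edgeR adjusted p = 0.060 and 0.058) and with scaling by library size only (0.14, edgeR adjusted p = 0.11). Under that scaling the Clcn6 rise with phenylephrine was 0.29 (edgeR adjusted p = 0.0020). The F-box genes Fbxo44 and Fbxo6 rose by 0.63 and 0.35 with phenylephrine (edgeR adjusted p = 8.9e-04 and 7.8e-06), while with IGF1 Fbxo6 fell by 0.39 (edgeR adjusted p = 4.7e-06) and the angiotensin receptor partner gene Agtrap by 0.32 (edgeR adjusted p = 0.0052). The Fbxo6 rise was 0.16 (edgeR adjusted p = 0.0040) with scaling by library size only.

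Likeness of pattern was measured as the root mean square difference of centred log2 CPM over the 9 samples, with Pearson's r given as a description; the samples share groups and libraries. Nearest to Nppa were F2rl1 (difference 0.27, r = 0.99), a protease-activated receptor gene, Nppb (0.27, r = 0.99), Tnfrsf12a (0.28, r = 0.998), the TWEAK receptor gene, Fhl1 (0.28, r = 0.99), a LIM protein gene of muscle, and Rnd1 (0.30, r = 0.99). Nearest to Nppb were Fhl1 (0.26), Nppa (0.27), Scn3b (0.31), a sodium channel subunit gene, F2rl1 (0.31) and Rnd1 (0.32), with r of 0.985 to 0.997. Over the samples other than IGF1 replicate 1, the nearest gene to each peptide gene was the other one, at a difference of 0.050 (r = 0.9996 over 8 samples), and the next was Ptgis, the prostacyclin synthase gene, at 0.22 from Nppa and 0.21 from Nppb.

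**Figure D5:**
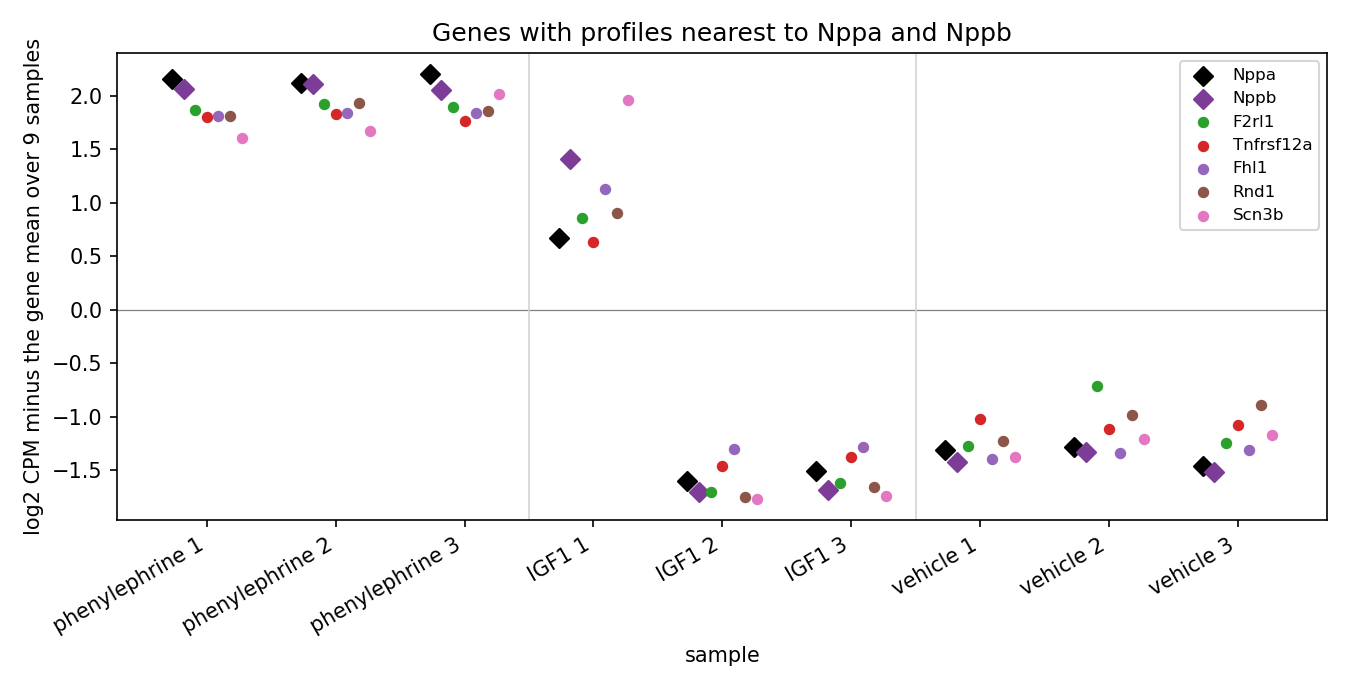
Log2 CPM minus each gene's mean over the 9 samples, for Nppa, Nppb (diamonds) and the genes with the nearest profiles, by sample. All are high with phenylephrine, lie apart from the group in IGF1 replicate 1 and are low in IGF1 replicates 2 and 3 and with vehicle.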

How the data were processed

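The deposited table holds raw read counts per gene symbol, with no normalization by the authors, in 17327 rows for 9 samples. The tools STAR, HTSeq and DESeq and the build rn5 are named per the submitters' processing notes; roles, versions and the strand setting are not given in the sources used here. Libraries came from total RNA with a NuGEN Ovation kit on an Illumina NovaSeq, per the labels' protocols.

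Low genes were removed with filterByExpr in edgeR 4.0.16 (minimum count 10, minimum total count 15), and libraries were scaled with TMM factors. One robust quasi-likelihood model of group was fitted over all 9 samples in R 4.3.3. Contrasts between groups used its F test, with Benjamini-Hochberg adjustment over all 11873 genes tested and a threshold of 0.05; every adjusted p is from edgeR unless another tool is named. The fit without IGF1 replicate 1 was filtered and adjusted anew, over 12030 genes. CPM comes from edgeR's cpm function with TMM-scaled libraries, and SEs were derived from the log2 fold change and F. Ratios of counts (0.5 added to each count) were compared with an exact two-sided permutation test.

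All 6 genes are described. For Nppa and Nppb the 5 genes, and for the others the 3 genes, with the nearest profile are named, among genes of at least 5 CPM in a group. From each list up to 2 highest and 2 lowest called genes are named, along with a few always named. Ostn, Mfn2, Gata6 and Jun, also in these lists, were named outside this rule with the results known. The 6 genes and all lists were chosen with earlier results of these data known. The fit was tested on simulated counts. Alternatives were DESeq2 1.42.0, limma-voom (limma 3.58.1), other scalings and filters, fits of 2 groups, the replicate number as a block, and leaving out each sample.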

Additional observations from a re-analysis of the deposited data

How the results depend on the processing

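Of 303 recomputed log2 fold changes of the 6 genes, 283 kept their direction and side of the threshold, 11 lost the call, 5 gained it and 4 changed sign. Leaving out each sample gave 3.44 to 3.53 for Nppb and -0.35 to -0.23 for Npr1 with phenylephrine against vehicle. With IGF1 against vehicle the ranges were -0.21 to 1.295 for Nppa, -0.27 to 1.98 for Nppb, -0.30 to -0.17 for Npr1 and -0.78 to -0.37 for Npr3. With phenylephrine against IGF1 they were 1.5 to 3.77 for Nppb, -0.12 to 0.012 for Npr1, -0.45 to -0.060 for Npr3 and -0.22 to -0.097 for Corin. Fits of 2 groups alone gave uncalled values of 2.56 for Nppa (phenylephrine against IGF1) and -0.58 for Npr3 (IGF1 against vehicle). For phenylephrine against IGF1, limma-voom called Nppb at 2.75, and scaling by library size only gave -0.023 for Npr2 and called Corin at -0.25; the cause was not tested.

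Library size only moved the median of all genes with phenylephrine against vehicle to -0.22, and the calls to 1751 higher and 5696 lower, against 3310 and 3429. Relative to that median, Npr1 was at -0.26, Npr2 at -0.76, Npr3 at -0.80 and Corin at -0.49. In IGF1 against vehicle the calls became 2031 higher and 3614 lower, against 2935 and 2781, and in phenylephrine against IGF1 2132 and 4366, against 3215 and 3222. DESeq2 gave no adjusted p for Nppb. Same-numbered samples of different groups had correlations of -0.23 to 0.088 in their deviations from group means. These showed no pairing by number, but spread among libraries can hide one, so whether samples were paired remains unknown. In fits that took the replicate number as a block, 6648, 5594 and 6312 genes were called, against 6739, 5716 and 6437, in phenylephrine against vehicle, IGF1 against vehicle and phenylephrine against IGF1; Pde1a (phenylephrine against vehicle, edgeR adjusted p = 0.0506) and Gucy1a2 (IGF1 against vehicle, edgeR adjusted p = 0.0508) then missed the threshold. The values of list genes and list counts under these alternatives were added after seeing the data; of 612 counts, 66 moved by over 1.5 times. In RefSeq for GRCr8 the spans of Npr1 and Corin overlap other annotated genes, whose strands were not compared. The build named for the counts is rn5, so whether reads of such genes entered these 2 rows was not tested.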

Other observations

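The genes nearest in pattern to the receptor genes and Corin are given here with their root mean square differences of log2 CPM. Nearest to Npr1 over the 9 samples were Impact (0.039), Rsbn1 (0.047) and the coagulation factor gene F8 (0.053). Nearest to Npr2 were Rab20 (0.069), Thnsl2 (0.081) and Foxo4 (0.084), a FoxO factor gene. Nearest to Npr3 were Aldh1a2 (0.088), a retinoic acid synthesis gene that is also in the list of epicardial markers, the angiopoietin gene Angpt1 (0.096) and Syne3 (0.099). Nearest to Corin were Efr3a (0.047), Vps13b (0.047) and Mxd1 (0.050). Without IGF1 replicate 1, Impact and Rsbn1 stayed nearest to Npr1 and Rab20 to Npr2, while the genes nearest to Npr3 and Corin were Gstcd (0.071) and Rnpepl1 (0.035). Of the 3 receptor genes, Npr1 had the smallest difference from Corin (0.13, r = 0.87), while Npr3 (0.21) had the highest r with it (0.95), over 9 samples.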
